A study of Mus musculus with 6 samples.

Results

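The 10 genes described here encode costimulatory and checkpoint molecules that antigen-presenting cells show to T cells: Cd80, Cd86, Cd40, Icosl, Cd274, Pdcd1lg2, Vsir, Lgals9, Havcr2 and Cd38. They were picked by symbol from the 21780 genes listed in the count table, with each Ensembl identifier matched to its symbol in GENCODE vM21, an annotation of the mouse build GRCm38. All 10 were found, and all 10 were among the 14429 protein-coding genes with enough counts to be tested. The lowest count of any of them in any library was 102, for Pdcd1lg2. Cd274 and Cd40 rose in the cells of mice given whole glucan particles (WGP), by 5.33-fold and 2.21-fold, and no gene of the 10 passed the test in the lower direction.

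A T cell that meets its antigen also reads accessory signals on the presenting cell. CD80 and CD86 engage CD28, which lowers the threshold for activation, and CTLA-4, which opposes it, while ICOS ligand engages ICOS. CD40 works in the other direction, as a receptor through which a helper T cell licenses the presenting cell. PD-L1 and PD-L2 (the products of Cd274 and Pdcd1lg2) restrain T cells through PD-1, VISTA (Vsir) and galectin-9 (Lgals9) are further inhibitory ligands, TIM-3 (Havcr2) is an inhibitory receptor that myeloid cells carry themselves, and CD38 is a surface enzyme that consumes NAD. B cells also carry CD40, CD80, CD86, ICOS ligand and CD38.

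The RNA came from live pancreatic cells of wild-type C57BL/6 mice, sorted as CD45+CD11b+ at 7 days after 1 intraperitoneal injection. The PBS group (3 libraries) received saline buffer alone, and the WGP group (3 libraries) received 1 mg of WGP, a particulate β-glucan from yeast, in the same buffer. The study states that the mice were 6 to 8 weeks old and of both sexes and that each sample came from a separate animal within 1 experiment, and the sex behind each library is not given in the sources used here. Both groups shared the strain, the route, the day of harvest and the sort on CD45 and CD11b, which takes in monocytes, macrophages, granulocytes and some dendritic cells together.

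Total counts were 35334645 to 40580936 in the PBS libraries and 38240913 to 43341834 in the WGP libraries. The genes of the sort markers were well expressed throughout, with Ptprc (CD45) at 949 to 1043 CPM (counts scaled to a common library total) in PBS and 1536 to 1747 CPM in WGP, and Itgam (CD11b) at 189 to 254 and 379 to 418 CPM. The CD3 genes that define T cells reached at most 11.3 CPM in any library, and Cd8a, the 1 T cell marker of 8 that passed (higher), was at 0 in all 3 PBS libraries and at 1.66, 2.94 and 1.49 CPM in WGP. PBS replicate 1 stood apart from the other PBS libraries. Its 8 B cell markers summed to 2599 CPM, against 666 and 388 CPM in PBS replicates 2 and 3 and 93.7 to 182 CPM in WGP, with none of the 8 at 0 in any library. Its 6 resident macrophage markers summed to 3867 CPM, against 7749 and 9867 CPM in the other PBS libraries and 955 to 1212 CPM in WGP. Of these markers, 7 of the 8 B cell genes and 5 of the 6 macrophage genes passed the test in the lower direction, and none in the higher. Acinar cell markers summed to 1175 to 4441 CPM in PBS and 294 to 491 CPM in WGP (7 of 8 passed lower), and plasmacytoid dendritic cell markers to 182 to 338 and 138 to 164 CPM (2 of 6 passed lower). The part of both in the differences below was not tested. Y-linked genes had 0 counts in PBS replicate 1, 8972 and 10063 in PBS replicates 2 and 3, and 0, 0 and 1 in the WGP libraries. Values were therefore also taken without PBS replicate 1. Others came from a fit with a term for the B cell marker level or for whether a library had Y-linked counts. They stand below beside many of the genes and related lists that they moved, though not all. The B cell marker sums did not overlap between the groups, so the term for them compares the groups at a level they did not share.

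Cd274 and Pdcd1lg2 are neighbours on chromosome 19, on the same strand, 22.8 kb apart with 0 protein-coding genes between them, while Lgals9 lies on chromosome 11. Their promoters are shown because Cd274 and Pdcd1lg2 are an adjacent pair of ligands of PD-1, and because the Lgals9 window held the listed motif matches. Each run gives the 250 bases before the RefSeq transcription start (GRCm38.p6), in the direction of transcription. Capitals mark matches on either strand to the interferon-stimulated response element (ISRE, searched as TTTC, any 2 bases, TTTC) or to an NF-kB site (searched as GGG, any 2 bases, TT, any base, CC).
Cd274, chr19:29367188-29367437, plus strand: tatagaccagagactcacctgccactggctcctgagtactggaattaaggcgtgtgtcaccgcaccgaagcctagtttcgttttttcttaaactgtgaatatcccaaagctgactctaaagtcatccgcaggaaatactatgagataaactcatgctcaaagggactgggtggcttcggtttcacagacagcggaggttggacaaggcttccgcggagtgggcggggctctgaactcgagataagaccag
Pdcd1lg2, chr19:29410669-29410918, plus strand: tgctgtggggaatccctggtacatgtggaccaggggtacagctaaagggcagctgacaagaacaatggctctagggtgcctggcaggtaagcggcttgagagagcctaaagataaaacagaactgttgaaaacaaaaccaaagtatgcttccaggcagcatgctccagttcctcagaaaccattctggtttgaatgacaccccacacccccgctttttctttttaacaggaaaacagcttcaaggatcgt
Lgals9, chr11:78984925-78985174, minus strand: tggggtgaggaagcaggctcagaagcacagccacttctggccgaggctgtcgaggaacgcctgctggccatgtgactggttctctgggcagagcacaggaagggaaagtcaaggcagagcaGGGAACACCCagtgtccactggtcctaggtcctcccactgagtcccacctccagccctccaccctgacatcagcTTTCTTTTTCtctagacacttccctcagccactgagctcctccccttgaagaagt

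Windows were found for 8 of the 10 genes. The Lgals9 window held 1 ISRE match beginning 55 bases before the start and 1 NF-kB match, on the opposite strand, beginning 129 bases before it, and another ISRE match began 16 bases after the start. The upstream windows of Cd80, Cd274, Pdcd1lg2, Icosl, Havcr2, Vsir and Cd38 held no match to either pattern as searched. None of the 8 held a gamma-activated site (GAS, searched as TTCNNNGAA on both strands). Sites that depart from these patterns would not have been found, so an unmarked window is not shown to lack them. Over 32851 promoter windows of the same length, the share with a match was 2.98% for ISRE, 4.11% for NF-kB and 7.02% for GAS. The motifs do not overlap each other in the Lgals9 window. These are matches of letters and say nothing of binding in these cells. The Cd274 window had a GC content of 50.4% with 11 CpG dinucleotides, that of Pdcd1lg2 48.4% with 3, and that of Lgals9 58.4% with 3.

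Levels are given as CPM after TMM scaling, an adjustment of library totals for composition, and differences as log2 fold changes of WGP over PBS from edgeR's quasi-likelihood test. A gene passed where its p, adjusted over all 14429 genes by the Benjamini-Hochberg method, did not exceed 0.05, and it was called where its log2 fold change was also at least 1 in size. Of the 10 genes, 2 passed in the higher direction and 0 in the lower, and the same 2 were called. Over all genes tested, 14.4% passed (7.54% higher and 6.81% lower) and 9.49% were called (4.53% higher and 4.96% lower). In the lower direction DESeq2 and limma-voom also passed 0 of the 10. An unadjusted p below 0.05 in edgeR was found for 4 of the 10 genes, 2 in each direction (Cd86 and Havcr2 lower), against 26% of all genes tested (12.9% higher and 13.1% lower), and the median log2 fold change of the 10 was 0.07, against -0.05 over all genes tested. The 3 WGP libraries lay wholly above the 3 PBS libraries for 2 of the genes and wholly below them for 1, against 16% and 16.1% of all genes tested, 32% in all. For the other 7 genes the groups overlapped.

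**Figure D1:**
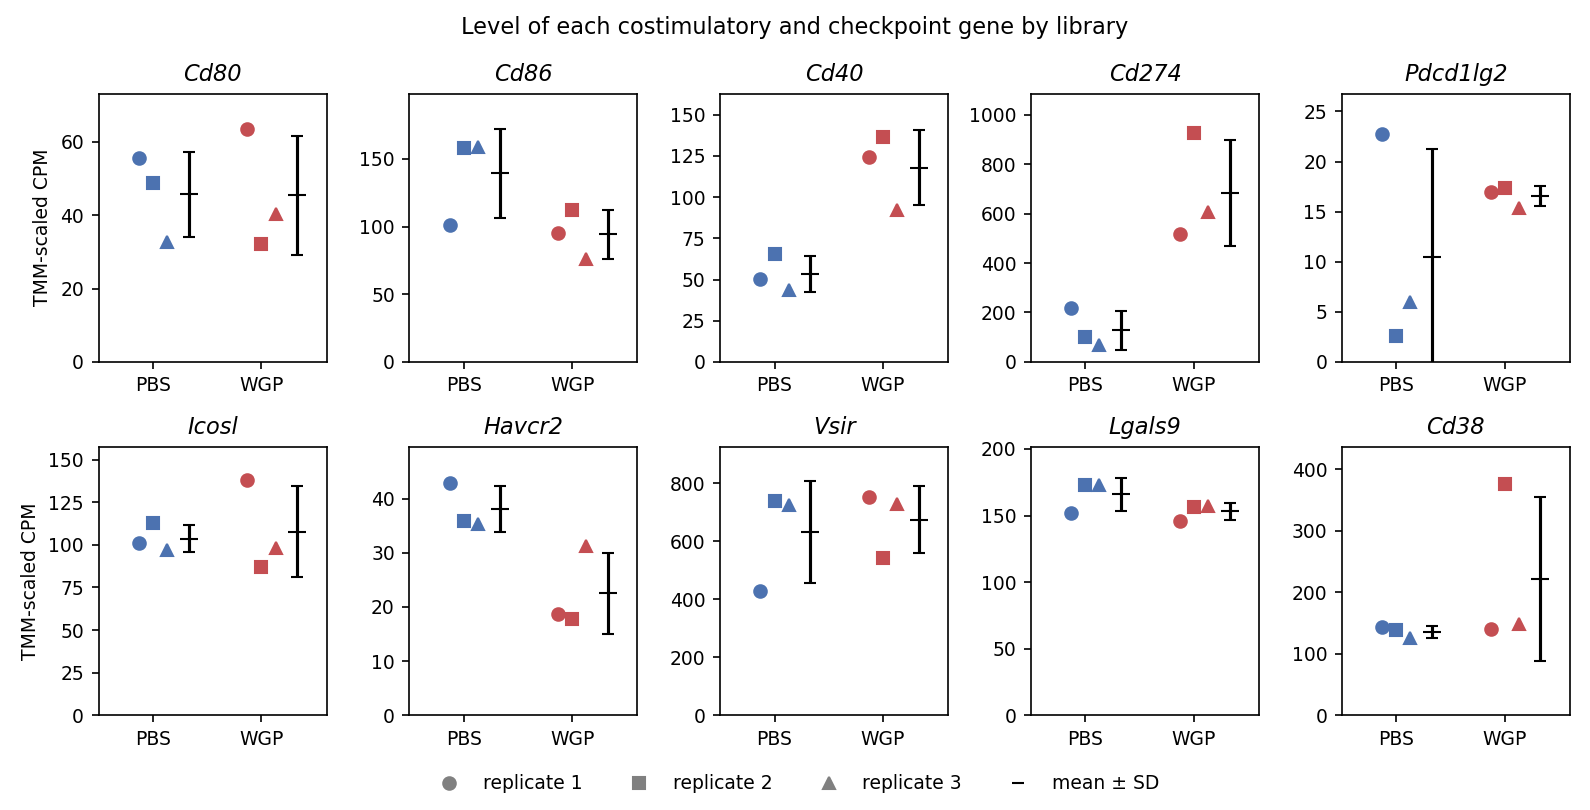
Level of each gene (y axis, TMM-scaled CPM, from 0) in the PBS and WGP libraries, with 1 point per library shaped by replicate number and the mean ± SD of 3 libraries beside them (bars are drawn down to 0 at most). All WGP points of Cd40 and Cd274 lie above all PBS points, those of Havcr2 lie below, and the groups of the other 7 genes overlap.

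Neither Cd80 nor Cd86, the B7 ligands of CD28 and CTLA-4, passed the test. Cd80 (ENSMUSG00000075122, chr16:38455561-38496335, plus strand) was at 55.6, 48.6 and 32.8 CPM in PBS replicates 1 to 3 and at 63.6, 32.2 and 40.4 CPM in WGP replicates 1 to 3. The groups overlapped, with WGP replicate 1 the highest library and WGP replicate 2 the lowest. Its log2 fold change was -0.01 (SE 0.28, adjusted p = 0.992 in edgeR). With the B cell marker level as a covariate it was 0.61, with a term for Y-linked counts -0.29 and without WGP replicate 1 -0.33. It passed in none of the 18 alternatives.

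Cd86 (ENSMUSG00000022901, chr16:36603869-36666081, minus strand) was at 101, 158 and 159 CPM in PBS and at 95.1, 112 and 76.0 CPM in WGP. PBS replicate 1 was the low PBS library and lay below WGP replicate 2, while PBS replicates 2 and 3 exceeded every WGP library. The group means were 139 ± 32.9 and 94.5 ± 18.2 CPM (SD, n = 3), for which the log2 fold change was -0.56 (SE 0.21, adjusted p = 0.115 in edgeR). Without PBS replicate 1 the log2 fold change was -0.75 and passed (adjusted p = 0.0169 in edgeR), with scaling by library totals only it was -0.66 and passed (adjusted p = 0.0499 in edgeR), and with a term for Y-linked counts it was -0.10 (adjusted p = 0.840 in edgeR). That last value rests on PBS replicate 1 as the PBS library without Y-linked counts. With the B cell marker level as a covariate the log2 fold change was -0.96 (adjusted p = 0.123 in edgeR), the most negative of the alternatives. It was negative in all 18 alternatives. Cd80 and Cd86 both lie on chromosome 16, 1789 kb apart on opposite strands.

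Icosl (ENSMUSG00000000732, chr10:78069302-78083913, plus strand), the ligand of ICOS, was at 101, 113 and 97.2 CPM in PBS and at 138, 87.0 and 98.1 CPM in WGP. WGP replicate 1 was the highest and WGP replicate 2 the lowest of all 6 libraries, with the PBS libraries between them. The log2 fold change was 0.05 (SE 0.19, adjusted p = 0.903 in edgeR), and it lay between -0.16 and 0.19 over the alternatives.

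Cd40 (ENSMUSG00000017652, chr2:165055627-165072948, plus strand), the receptor for CD40 ligand, was at 50.4, 65.5 and 43.9 CPM in PBS and at 124, 137 and 92.5 CPM in WGP. Every WGP library exceeded every PBS library, and PBS replicate 1 lay between the other PBS libraries. The summed markers of conventional dendritic cells, which carry CD40 as well, overlapped between the groups, at 483 to 556 CPM in PBS and 386 to 607 CPM in WGP, while single markers moved both ways, with Itgax passing higher and Cd209a lower. The part of these cells in the Cd40 difference was not tested. The level rose from 53.3 ± 11.1 to 118 ± 22.7 CPM (SD, n = 3), a log2 fold change of 1.15 (SE 0.20, adjusted p = 0.00379 in edgeR). It passed in all 18 alternatives, with log2 fold changes between 1.03 and 1.35 and adjusted p values between 3.38e-05 in DESeq2 and 0.0468 in edgeR with the B cell marker level as a covariate. In a bulk sample a larger share of expressing cells and more RNA per cell cannot be told apart, here and for every gene that follows.

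Cd274 (ENSMUSG00000016496, chr19:29367455-29388095, plus strand), which encodes PD-L1, was at 218, 101 and 66.6 CPM in PBS and at 519, 926 and 606 CPM in WGP. All WGP libraries exceeded all PBS libraries, with WGP replicate 2 the highest and PBS replicate 1 the highest of its group. The level rose from 128 ± 79.3 to 684 ± 214 CPM (SD, n = 3), a log2 fold change of 2.41 (SE 0.40, adjusted p = 0.00246 in edgeR) that ranked 681 by p value among the genes tested. It was the largest log2 fold change of the 10 genes, and it passed in all 18 alternatives with adjusted p values between 0.000101 and 0.0186.

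The size of the Cd274 difference depended on PBS replicate 1. The 3 PBS libraries had the same order for Cd274 as for the sum of the B cell markers and the opposite order for the sum of the resident macrophage markers. The marker sums of neutrophils (4205, 2581 and 1923 CPM), conventional and plasmacytoid dendritic cells, NK cells, T cells and eosinophils had the Cd274 order too. Since the B cell marker sums did not overlap between the groups, adjusting for them extrapolates beyond the levels the groups shared. Without PBS replicate 1 the log2 fold change was 3.03, and with the B cell marker level as a covariate it was 4.13. With a term for Y-linked counts, where the contrast again rests on PBS replicate 1, it was 1.65 (adjusted p = 0.0163 in edgeR). Of 8 markers of Ly6C-high monocytes, 5 passed higher in WGP and 1 lower, with sums of 2671 to 4232 CPM in PBS and 3865 to 4439 CPM in WGP. Without F13a1, the marker that passed lower, left out after its values were seen, the sums were 758 to 1336 CPM in PBS and 3518 to 4004 CPM in WGP and did not overlap. The part of the markers other than those of B cells in the Cd274 difference was not tested. The Cd274 exons share 511 bases with an antisense gene, AC119228.1, and since the strand setting of the counting is not given in the sources used here, reads of the 2 genes in that stretch cannot be told apart.

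Pdcd1lg2 (ENSMUSG00000016498, chr19:29410919-29471161, plus strand), which encodes PD-L2, was at 22.8, 2.62 and 5.99 CPM in PBS and at 16.9, 17.3 and 15.4 CPM in WGP. The WGP libraries lay close together, above PBS replicates 2 and 3 and below PBS replicate 1. The counts behind these levels were 875, 102 and 245 in PBS and 624, 719 and 630 in WGP. In these libraries the most frequent count of a gene between 6 and 100 was 19 to 41, smoothed over neighbouring counts, and the reads carry no molecular identifiers, so 102 counts can stand for few molecules.

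The log2 fold change of Pdcd1lg2 was 0.66 (SE 0.63, adjusted p = 0.546 in edgeR). It was 1.23 in limma-voom and 1.22 in edgeR with the replicate number as a block, and passed in neither. Without PBS replicate 1 it was 1.94 and passed (adjusted p = 0.0133 in edgeR), and with a term for Y-linked counts it turned to -0.46 (adjusted p = 0.634 in edgeR). With the B cell marker level as a covariate it was 3.03 (adjusted p = 0.0577 in edgeR). Its spread within groups was the widest of the 10 genes, with a pooled SD of 1.04 in log2 CPM (0.5 CPM added), against a median of 0.38 over all genes tested. Nearly all of this lay in the PBS group, where the SD was 1.47, against 0.09 in the WGP group.

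Vsir (ENSMUSG00000020101, chr10:60346851-60372684, plus strand), which encodes VISTA, was at 428, 741 and 727 CPM in PBS and at 753, 541 and 730 CPM in WGP. PBS replicate 1 was the lowest library, and WGP replicate 2 was the next lowest. The log2 fold change was 0.09 (SE 0.22, adjusted p = 0.850 in edgeR). Its sign changed with the covariates, from -0.67 with the B cell marker level to 0.66 with the term for Y-linked counts (adjusted p = 0.188 and 0.0814 in edgeR), and it passed in none of the alternatives. Vsir lies inside Cdh23, a gene of the opposite strand, with 0 shared exonic bases.

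Lgals9 (ENSMUSG00000001123, chr11:78962974-78984946, minus strand), which encodes galectin-9, was at 152, 173 and 173 CPM in PBS and at 146, 157 and 157 CPM in WGP. The lowest library of each group was replicate 1, and the groups overlapped. The log2 fold change was -0.12 (SE 0.13, adjusted p = 0.643 in edgeR). It was -0.30 with the B cell marker level as a covariate and 0.01 with a term for Y-linked counts. Lgals9 had the narrowest spread of the 10 genes, with a pooled SD of 0.09 in log2 CPM, narrower than in all but 2.68% of the genes tested.

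Havcr2 (ENSMUSG00000020399, chr11:46454935-46481255, plus strand), which encodes TIM-3, was at 42.9, 36.0 and 35.4 CPM in PBS and at 18.8, 17.7 and 31.2 CPM in WGP. The WGP libraries all lay below the PBS libraries, with WGP replicate 3 close to them. The means were 38.1 ± 4.19 and 22.6 ± 7.48 CPM (SD, n = 3), for which the log2 fold change was -0.75 (SE 0.26, adjusted p = 0.0815 in edgeR) that did not pass. Without WGP replicate 3 it was -1.06 and passed (adjusted p = 0.0246 in edgeR). In the other 17 alternatives it was negative and did not pass.

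Cd38 (ENSMUSG00000029084, chr5:43868553-43912375, plus strand), the NAD-consuming enzyme, was at 144, 139 and 125 CPM in PBS and at 140, 376 and 149 CPM in WGP. WGP replicate 2 alone was high, and the other 5 libraries lay between 125 and 149 CPM. The log2 fold change was 0.71 (SE 0.33, adjusted p = 0.208 in edgeR), and without WGP replicate 2 it was 0.09 (adjusted p = 0.773 in edgeR). With the B cell marker level as a covariate it was 1.18 and did not pass (adjusted p = 0.289 in edgeR). WGP replicate 2 was also the highest library for Cd274 and for the summed T cell markers, at 54.4 CPM against 20.9 and 21.2 CPM in the other WGP libraries and 39.7 to 47.3 CPM in PBS, whose part in the Cd38 level was not tested.

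**Figure D2:**
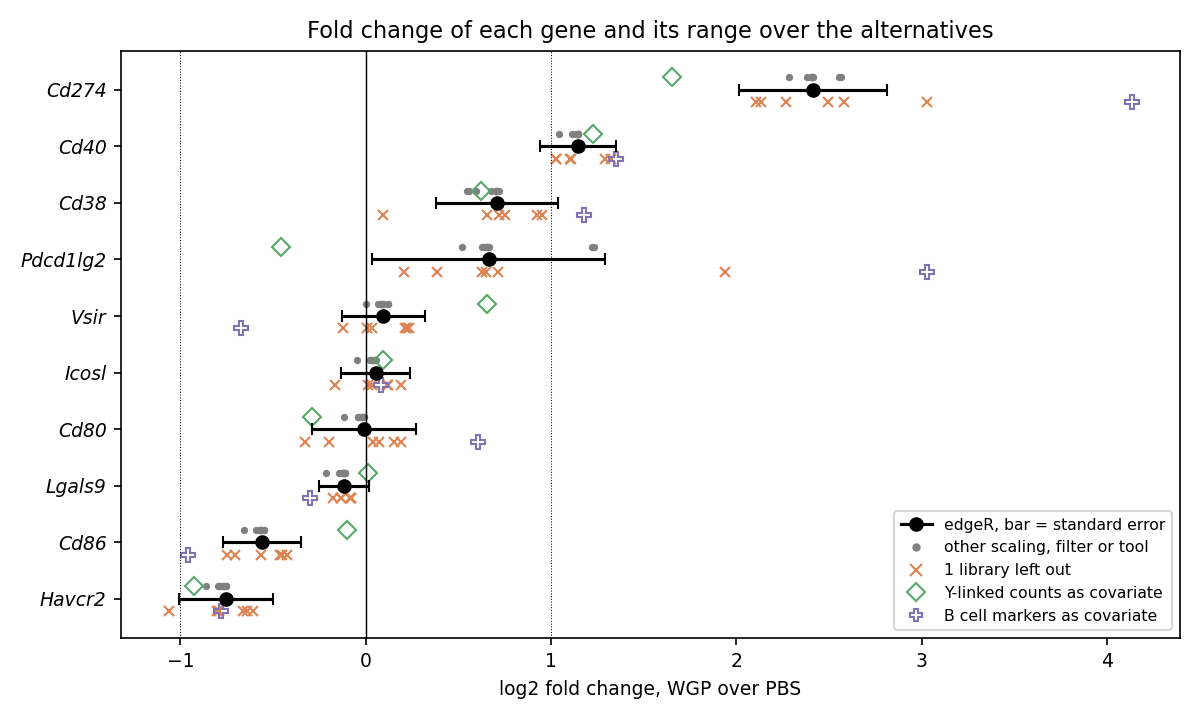
Log2 fold change of WGP over PBS (x axis) for each gene (y axis), with the value from edgeR and its standard error in black and the values of the 18 alternatives as coloured marks. Cd274 and Cd40 stay above 1 in every alternative, whereas Pdcd1lg2 spans -0.46 to 3.03 and Vsir -0.67 to 0.66 with the covariates at either end.

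Divided by exonic length, which allows genes to be set against each other, the order of the levels changed at the top. In PBS the highest were Vsir, at 126 CPM per kilobase, and Lgals9, at 77.7 CPM per kilobase. Cd86 followed at 38.1, Cd274 at 35.4 and Cd38 at 34.9 CPM per kilobase, and these 3 did not differ beyond the spread of the libraries. Icosl stood at 22.4 CPM per kilobase, and below it Cd40, Havcr2, Cd80 and Pdcd1lg2, at 15.6, 14.0, 12.3 and 5.33 CPM per kilobase, overlapped each with the next.

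In WGP, Cd274 was first, at 189 ± 59.1 CPM per kilobase (SD, n = 3), with a range over libraries that overlapped that of Vsir, at 135 ± 23.2. Lgals9, Cd38, Cd40, Cd86 and Icosl followed at 71.7, 57.0, 34.6, 25.8 and 23.3 CPM per kilobase, each overlapping the next. Cd80, Pdcd1lg2 and Havcr2 were lowest, at 12.3, 8.44 and 8.29 CPM per kilobase, and overlapped each with the next. Cd274 thus moved from rank 4 to rank 1 by the mean. With the length of the longest transcript in place of all exons it moved from rank 6 to rank 1, and Vsir and Lgals9 then overlapped in PBS.

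**Figure D3:**
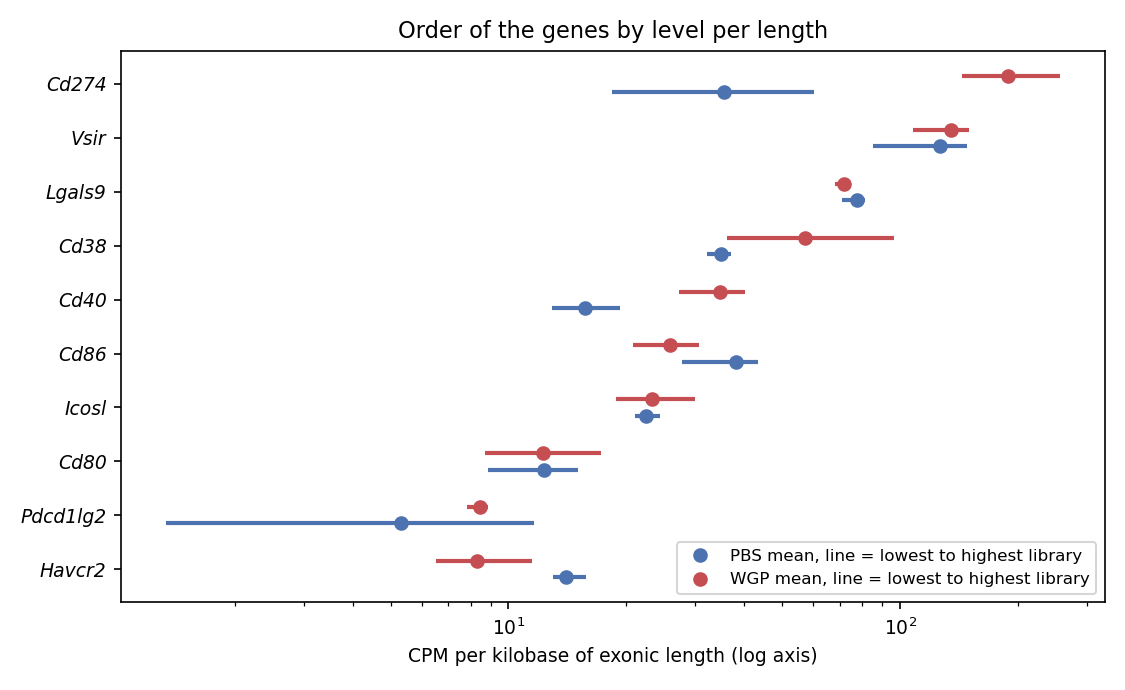
Level per kilobase of exonic length (x axis, CPM per kilobase, log axis) for each gene (y axis), with the mean of 3 libraries as a point and the lowest to highest library as a line, for PBS and WGP. Cd274 shifts from 35.4 to 189 CPM per kilobase, past Vsir and Lgals9, whose points nearly coincide in the 2 groups, and Pdcd1lg2 has the longest line, in PBS.

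The balance between pairs of genes was compared as the ratio of their CPM within a library, with 0.5 CPM added to both before division, so that the scaling of the library has little effect on it. In all, 6 pairs were compared, with an exact two-sided permutation test of the log2 ratios that cannot give a p below 0.1 with 3 libraries against 3. The ratio of Cd86, a costimulatory ligand, to Cd274, an inhibitory one, was 0.467, 1.57 and 2.38 in PBS and 0.184, 0.122 and 0.126 in WGP. The groups did not overlap, although PBS replicate 1 was nearer to the WGP libraries than the others were. The difference in mean log2 ratio was -3.09 (exact permutation p = 0.1, adjusted over the 6 pairs 0.15), and over the libraries left out in turn it lay between -3.77 without PBS replicate 1 and -2.60 without PBS replicate 3.

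Cd274 against Cd80, the other B7 ligand, gave ratios of 3.89, 2.06 and 2.02 in PBS and 8.10, 28.3 and 14.8 in WGP. All WGP ratios were above all PBS ratios, a difference of 2.57 in log2 (exact permutation p = 0.1, adjusted 0.15). The ratio of Cd80 to Cd86 was 0.550, 0.310 and 0.209 in PBS and 0.671, 0.290 and 0.535 in WGP. These overlapped, with a difference of 0.52 in log2 (exact permutation p = 0.5, adjusted 0.5).

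Among the inhibitory ligands, the ratio of Cd274 to Pdcd1lg2 was 9.38, 32.4 and 10.3 in PBS and 29.8, 51.9 and 38.2 in WGP. PBS replicate 2, the library with 102 Pdcd1lg2 counts, reached into the WGP range. The difference of 1.41 in log2 had an exact permutation p of 0.2 (adjusted 0.24). The ratio of Vsir to Cd274 was 1.96, 7.33 and 10.8 in PBS and 1.45, 0.585 and 1.21 in WGP, a difference of -2.42 in log2 without overlap (exact permutation p = 0.1, adjusted 0.15). Without PBS replicate 1 it was -3.15, the farthest from this value with any 1 library left out. The ratio of Havcr2 to Lgals9, a receptor and a ligand ascribed to it, was 0.285, 0.210 and 0.206 in PBS and 0.132, 0.116 and 0.201 in WGP. These did not overlap, with WGP replicate 3 close to the PBS libraries, and differed by -0.67 in log2 (exact permutation p = 0.1, adjusted 0.15).

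**Figure D4:**
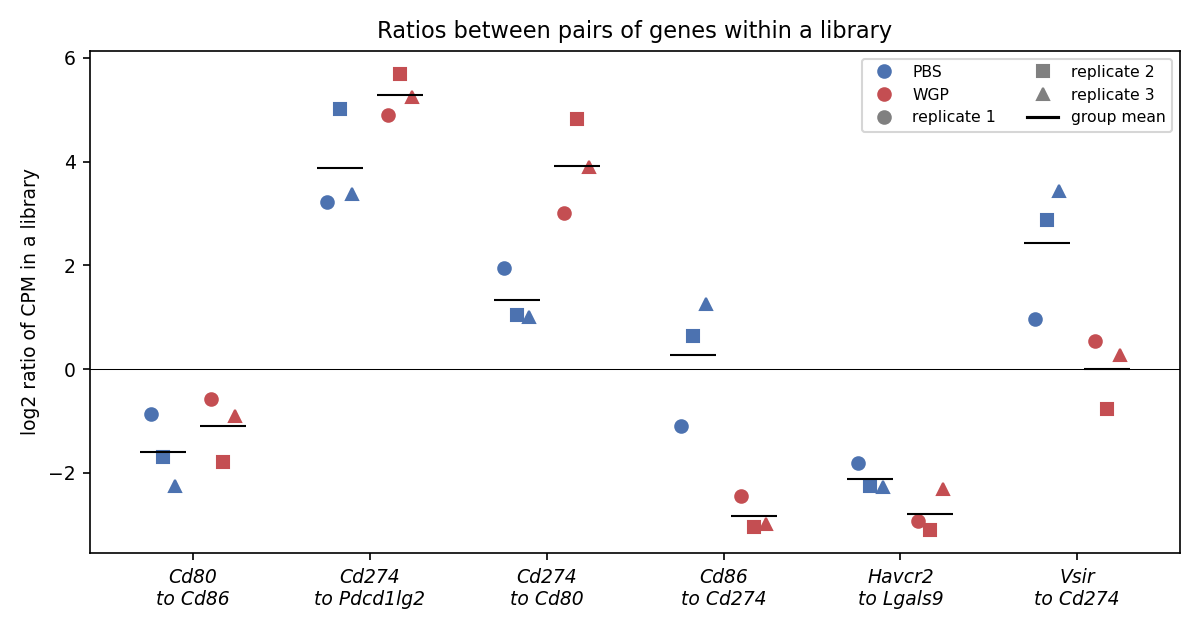
Log2 ratio of the CPM (0.5 added) of 2 genes within a library (y axis) for the 6 pairs (x axis), with 1 point per library and a line at the group mean. The groups are apart for Cd274 to Cd80, Cd86 to Cd274, Havcr2 to Lgals9 and Vsir to Cd274, and overlap for Cd80 to Cd86 and Cd274 to Pdcd1lg2.

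The tested genes nearest to Cd274 over the 6 libraries, by the root mean square difference of log2 CPM (with 0.5 CPM added) centred on each gene's mean, were Ccl5 at 0.23, F3 at 0.24, Igf2r at 0.26, Plac8 at 0.27 and Slc2a1 at 0.31. All 5 had, like Cd274, PBS replicate 1 as the highest and PBS replicate 3 as the lowest PBS library. Of the other 9 genes, Cd40 was nearest at 0.89, followed by Pdcd1lg2 at 0.94 and Cd38 at 1.11. The libraries are shared by all these genes, so this is a description of likeness over 6 points.

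Other ligands that antigen-presenting cells show to T cells, 19 genes, were taken as a related list. Of the 18 tested, 6 passed in the higher and 1 in the lower direction, with a median log2 fold change of 0.47. The smallest p values belonged to Tnfrsf14, which encodes HVEM, the partner of BTLA, with a log2 fold change of 3.04, to Lgals3, which encodes galectin-3, with 1.33, and to Icam1, an adhesion ligand of LFA-1, with 1.72. Tnfrsf14 was at 19.6, 11.0 and 20.9 CPM in PBS and at 134, 135 and 154 CPM in WGP, with every WGP library above every PBS library. The single gene in the lower direction, named after its value was seen, was the B7 family member Cd276, at -1.78 in log2 (adjusted p = 0.0312 in edgeR). It did not pass with PBS replicate 1, 2 or 3 or WGP replicate 1 or 3 left out, nor with a term for B cell markers or Y-linked counts. The 6 higher passes became 3 without PBS replicate 2 or PBS replicate 3, or with the term for Y-linked counts. Fgl1 was at 0 counts in every library, and the list median was the same with the 2 genes at 0 in 1 group set to their bound (a floor of 3 counts over the group).

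Receptors of the T cell side, 17 genes, held 1 that passed, Cd2, in the lower direction, with a median of 0.35 over the list. The lower passes were 2 with upper-quartile or library-total scaling, with filters of at least 1 count in any library or at least 10 in every library, with the replicate block, and with any 1 of PBS replicates 2 and 3 and WGP replicate 2 left out. Cd2, an adhesion receptor of T, NK and B lineage cells, was at 173, 46.8 and 30.0 CPM in PBS and at 12.5, 10.5 and 11.5 CPM in WGP, a log2 fold change of -2.86 (adjusted p = 0.00598 in edgeR). Btla, at 95.9, 28.1 and 27.5 CPM in PBS and 21.5, 18.5 and 12.4 CPM in WGP, and Ctla4, at 43.1, 14.7 and 10.2 CPM in PBS and 3.34, 12.0 and 2.47 CPM in WGP, had log2 fold changes of -1.53 and -1.93 and did not pass. All 3 were highest in PBS replicate 1. That library had the largest sums of B cell, NK cell, neutrophil, eosinophil and plasmacytoid dendritic cell markers. Which of these cells carried the 3 genes was not tested. With the B cell marker level as a covariate 0 genes of the list passed in the lower direction, in edgeR, as was also the case in limma-voom, while DESeq2 passed 4. With the term for Y-linked counts 3 passed lower.

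A list of inhibitory and other receptors of myeloid cells, 11 genes beside Havcr2, moved both ways, with 5 higher and 3 lower and a median of -0.02. The 5 became 3 with upper-quartile or library-total scaling, with edgeR's filterByExpr filter and with any PBS library or WGP replicate 3 left out, and with the term for B cell markers. With the term for Y-linked counts the 3 lower passes became 2. Clec12a and Pirb, which carry inhibitory signalling motifs, had log2 fold changes of 1.14 and 1.54. Timd4, a receptor for phosphatidylserine found on resident macrophages, had -3.55, from 131, 281 and 305 CPM in PBS to 14.9, 30.5 and 16.0 CPM in WGP. Timd4 was lowest among PBS libraries in replicate 1, as were the resident macrophage markers, whose part in it was not tested. The other 2 that passed lower, named after their values were seen, were Vsig4, at -5.44, and Cd33, at -1.05.

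CD40 signalling and NF-kB genes, 17 in number, held 4 that passed higher and 2 that passed lower, with a median of 0.30. Nfkb2 and Relb, the transcription factor subunits of the non-canonical pathway that CD40 can engage, had log2 fold changes of 1.10 and 1.05, and the adaptor gene Traf1 had 1.30. Both genes in the lower direction, named after their values were seen, encode inhibitors of NF-kB signalling, Nfkbia at -0.66 and Tnfaip3 at -0.63. In the lower direction 0 genes of the list passed without PBS replicate 2 or WGP replicate 3, and 1 without PBS replicate 3 or WGP replicate 2. Without PBS replicate 1, 6 passed higher. With the term for B cell markers 5 passed higher and 0 lower, and with that for Y-linked counts 2 and 1. The kinase gene of the non-canonical pathway, Map3k14, also named after its value was seen, was at 0.03 (adjusted p = 0.947 in edgeR).

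The interferon-gamma arm and genes of PD-L1 control, 13 in number, held 7 that passed higher and 0 that passed lower in edgeR, with the highest median of the lists, 0.72. In that list 11 genes had an unadjusted p below 0.05, against 26% of all genes tested, and 1 passed lower in DESeq2 and 0 in limma-voom. With the term for B cell markers, as without PBS replicate 1 and with library totals, 1 passed lower. Ifngr2, a receptor chain of the pathway, had a log2 fold change of 1.51, and Irf1, an interferon-induced transcription factor, had 2.30. Jak2, named after its value was seen because it lies 54.4 kb from Cd274 on the same strand, had a log2 fold change of 1.50 (adjusted p = 0.000279 in edgeR). Cmtm6, which stabilises PD-L1 protein, was at 256 ± 21.5 and 199 ± 13.5 CPM, a log2 fold change of -0.37 that did not pass (adjusted p = 0.119 in edgeR), and was also named after its value was seen.

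NAD and ectonucleotidase genes, 13 in number and related to Cd38, held 5 that passed higher and 1 that passed lower, with a median of 0.58. Bst1 (CD157), the sister enzyme of CD38, lies 24.6 kb from Cd38 on the same strand with 0 protein-coding genes between them. It was at 42.1, 51.1 and 60.1 CPM in PBS and at 217, 325 and 277 CPM in WGP, a log2 fold change of 2.42, and its groups were far apart where those of Cd38 overlapped. Nampt, of the NAD salvage pathway, had a log2 fold change of 2.26 and Parp14, an ADP-ribosyltransferase, 1.39. The gene that passed lower, named after its value was seen, was Enpp1, a nucleotide-degrading enzyme, at -1.53. With the term for B cell markers 3 passed higher and 0 lower.

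**Figure D5:**
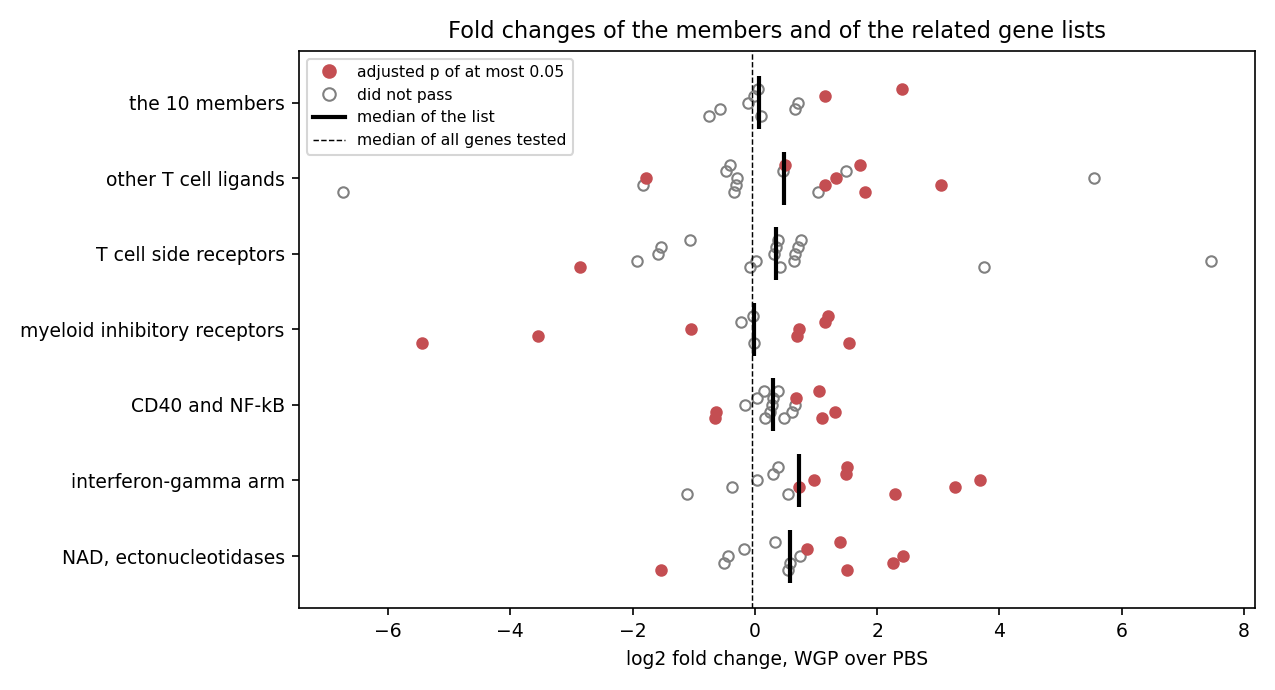
Log2 fold change of WGP over PBS (x axis) for each tested gene of the 10 and of the 6 related lists (y axis), filled where the adjusted p was at most 0.05, with the list median as a black bar and the median of all genes tested as a dashed line at -0.05. Filled points lie on both sides for the list labelled myeloid inhibitory receptors, which also holds other receptors. They lie on the higher side only for the interferon-gamma arm and for the 10 genes.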

How the data were processed

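Poly(A) RNA of 6 libraries was sequenced. The authors aligned the reads to the mouse genome (mm10, GRCm38.p6) with STAR 2.6, counted them per gene with HTSeq 0.10.0 and deposited raw counts per Ensembl gene without normalization. The strand setting, annotation release and handling of duplicate reads are not given in the sources used here.

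Symbols, coordinates and exonic lengths were taken from GENCODE vM21, and promoter windows from RefSeq. Protein-coding genes were tested where their RLE-normalized counts came to 10 or more over all libraries, in R 4.3.3 with edgeR 4.0.16 (quasi-likelihood, TMM, no covariates). Standard errors were derived from the F statistic and the log2 fold change. Ratios were tested by exact permutation, with the pseudocount of 0.5 CPM also set to 0.1. The fit was tested on simulated data. Alternatives (18 per gene) were RLE, upper-quartile and library-total scaling, DESeq2 1.42.0, limma-voom (limma 3.58.1), 3 other filters, thinning to the smallest total, a replicate block, the presence of Y-linked counts (at least 10) as a covariate, each library left out, and, added after marker levels were seen, a B cell marker covariate.

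The 10 genes, the related lists and the markers were chosen with earlier results of these data known. Genes named were the 10, the 3 with the smallest p of each list, any called gene of a list with 3 or fewer called, and the 5 nearest to Cd274. Markers were given as list sums with defining markers. Amino acid sequences were not used here. The values of 1 gene that this rule names are not reported here.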

Additional observations from a re-analysis of the deposited data

How the results depend on the processing

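Cd274 and Cd40 passed higher in all 18 alternatives, and Cd80, Icosl, Vsir, Lgals9 and Cd38 passed in none. The number of the 10 genes that passed lower was 0, and 1 with scaling by library totals only (Cd86), and it lay between 0 and 1 with each library left out in turn, being 1 without PBS replicate 1 (Cd86) or WGP replicate 3 (Havcr2). The number called lower likewise lay between 0 and 1, being 1 without WGP replicate 3. Scaling by library totals moved the median log2 fold change of all genes by -0.10, and the cause of Cd86 passing there was not tested beyond that shift. Over all genes, 1088 passed higher and 983 lower. With the B cell marker level as a covariate these were 562 and 597, with 1 residual degree of freedom fewer. The marker sums behind that covariate also did not overlap between the groups. With a library left out the number passing higher lay between 774 and 1152 and the number passing lower between 643 (without PBS replicate 2) and 1051, from fewer samples. DESeq2 passed 1326 and 1366, and library totals 895 and 1186.

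The replicate number as a block gave 1016 higher and 931 lower, with log2 fold changes of 2.57 for Cd274 and 1.15 for Cd40, and changed no call among the 10 genes. Same-numbered PBS and WGP libraries deviated from their group means with correlations of 0.09, -0.03 and 0.09 over genes, so the numbers were not taken to pair the libraries.

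The lowest count among the 10 genes, 102 for Pdcd1lg2 in PBS replicate 2, limits the precision of that gene. The PBS group cannot separate the presence of Y-linked counts from the other features of replicate 1, since it has 1 library without them.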
